A study of Zea mays with 4 samples.

Results

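The regions described here are pairs of neighbouring THX20 binding sites that stand at a fixed distance on the DNA. THX20 summits were sorted along each chromosome or contig, and adjacent summits at exactly one of a pair of set distances were kept. The shorter spacing lies between 152 and 154 bp and the longer one between 181 and 183 bp, and the exact values stand with the account of the processing. Of 105707 pairs of adjacent THX20 summits, 667 met this rule, 359 at the shorter and 308 at the longer spacing. They held 717 and 616 peaks, which was 0.677% and 0.582% of the 105867 peaks of the THX20 list. The pairs were chosen by the distance between their measured summits, so the excess at these distances is a description and is not tested.

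THX20 (Zm00001d017420) is by its name a trihelix protein. Trihelix factors are found in plants and carry a DNA-binding domain related to that of MYB proteins. They are known for binding GT elements, short stretches of DNA first described in promoters of light-responsive genes. The maize genome consists for the most part of transposable elements, which occur as many copies with a similar sequence. No genome sequence or annotation of repeats was used here, so the genes, repeats and motifs at the pairs were not examined.

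The sites came from DNA affinity purification sequencing (DAP-seq), in which a tagged factor made in a wheat germ extract is fixed to beads and binds fragments of purified genomic DNA. The study ran THX20, C3H23 (Zm00001d008323), CPP2 (Zm00001d031008) and OBF4 (Zm00001d012553), each with 1 library, on leaf DNA of the inbred line B73 at 14 DAG. By their names C3H23 is a CCCH zinc finger protein, CPP2 a cysteine-rich CPP protein and OBF4 a bZIP protein of the ocs-element binding group. Because the DNA is free of chromatin proteins, the lists show which places a factor can bind, not which it occupies in a living cell. The read depth is unknown. With 1 library there is no replicate check, and the intervals below cover counting error only, at 95%. Pairs that are copies of one sequence would not be independent, so the intervals may be too narrow.

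Each spacing was set against adjacent THX20 pairs whose distance was 3 to 12 bp off on either side, 20 distances in all. The 359 pairs at the shorter spacing were 3.80 times (3.42 to 4.22) the mean of 94.5 pairs per distance around it. The 308 pairs at the longer spacing compared with a mean of 94.7, a ratio of 3.25 (2.90 to 3.64). They were the most frequent and the second most frequent distance between adjacent THX20 summits. Just outside the rule, 132 pairs were 152 bp and 99 pairs 154 bp apart, with 90 and 80 pairs at 151 and 155 bp. Around the longer spacing the limit was less sharp, with 270 pairs 181 bp apart and 72 pairs 183 bp apart, and 78 and 54 pairs at 180 and 184 bp. The distances used for comparison were not all without a preference of their own. Those beside the shorter spacing included 159 bp (194 pairs) and 158 bp (171 pairs), and those beside the longer one included 191 bp (270 pairs), 175 bp (247 pairs) and 176 bp (216 pairs). Without the 4 and 3 distances found over 1.5 times as often as the median, 1261 and 1161 pairs were left for comparison.

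**Figure D1:**
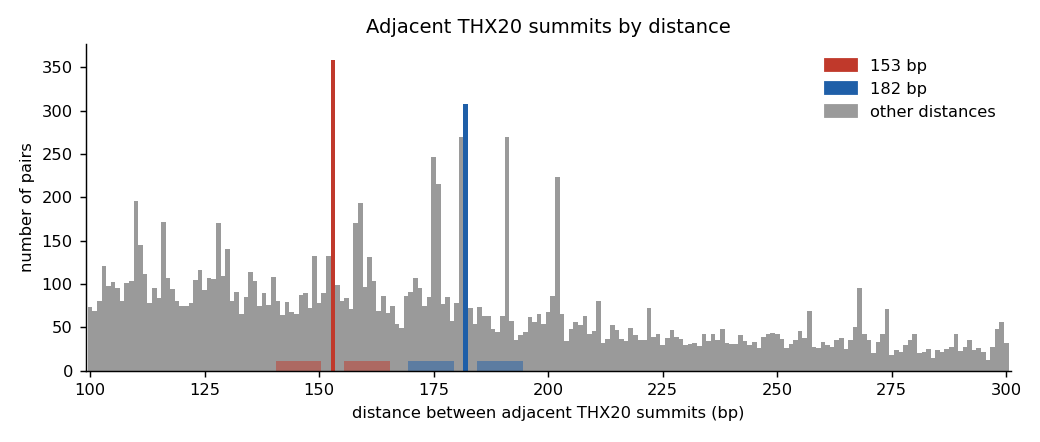
Number of adjacent THX20 summits at each distance from 100 to 300 bp (grey bars), with the 359 pairs at the shorter spacing in red and the 308 pairs at the longer spacing in blue. The strips along the axis mark the distances 3 to 12 bp off each spacing; some of these, such as 191 bp with 270 pairs, are tall themselves.

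The authors' signal per peak, whose scale is not stated, was compared between the peaks of a pair. Pairs at both spacings combined a strong and a weak peak more often than pairs 3 to 12 bp off. At the shorter spacing the stronger peak had a median signal of 55.9 (52.2 to 60.6) and the weaker one 23.4 (22.3 to 24.6), against 54.5 and 24.4 in the pairs 3 to 12 bp off. The median of weaker over stronger was 0.459 (0.429 to 0.499) at the shorter spacing and 0.532 (0.509 to 0.547) in pairs off that distance. At the longer spacing the stronger peak had a median of 59.5 (56.2 to 63.8), above the 49.9 (47.8 to 51.7) of the pairs off that distance. The weaker peaks did not differ beyond their intervals, with medians of 23.9 (22.0 to 26.1) at the longer spacing and 23.8 (23 to 24.5) off it. Weaker over stronger was 0.464 (0.419 to 0.520) at the longer spacing and 0.545 (0.527 to 0.563) off it. Against the median of 32 for all THX20 peaks, the stronger peak of a pair lay above and the weaker one below in 61.0% (55.9 to 65.9%) of the pairs at the shorter spacing, and in 49.5% (47.2 to 51.8%) of the pairs off it. In the longer class this share was 56.2% (50.6 to 61.6%), against 47.5% (45.3 to 49.8%) off it.

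Left and right signals were negatively correlated within the classes, though not in them alone. Across the 359 pairs at the shorter spacing their Spearman correlation was -0.23, and across the 308 pairs at the longer spacing it was -0.21. In the 1889 and 1894 pairs off these distances it was 0.05 and 0.07. Both peaks of a pair share the library and the local sequence, and no test is attached to these values. In many pairs, in the classes and among the compared ones, the left and right signals added up to a whole number. They may thus not be separate measurements, which also bears on weaker over stronger and on the order of the peaks. How the signal was shared out was not tested. All 20 single distances beside the shorter spacing had a higher correlation than the class itself. Beside the longer spacing, 18 of 20 did, and the exceptions were 175 bp (-0.25) and 191 bp (-0.21). The frequent distance of 202 bp, outside the compared ones, had a lower correlation (-0.41) and a lower median of weaker over stronger (0.355) than either class. That median was also below the class at 142 bp (0.439) and 149 bp (0.448) beside the shorter spacing, and at 194 bp (0.457) beside the longer one. The left peak was the stronger in 165 of 359 pairs at the shorter spacing (46.0%, 40.9 to 51.1%) and in 139 of 308 at the longer spacing (45.1%, 39.7 to 50.7%). Strong and weak peaks thus came in either order along the deposited coordinates, at shares whose intervals included 50%.

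**Figure D2:**
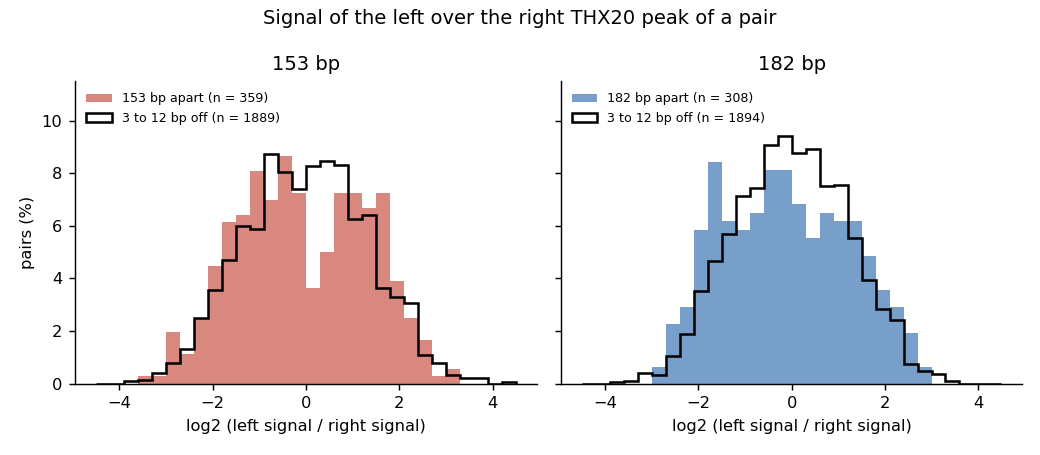
Histograms of the log2 ratio of left over right signal for pairs at the shorter (red, n = 359) and the longer spacing (blue, n = 308), with pairs 3 to 12 bp off as black outlines (n = 1889 and 1894). Just to the right of equal signal the filled histograms are below the outlines: weaker over stronger was above 0.8 in 12.3% and 15.9% of the pairs, against 16.8% and 19.1% of the outlined ones.

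Among the pairs whose weaker peak was strongest, the leading one at the shorter spacing lay on chromosome 10 from 55034383 to 55034736, with signals of 109.1 on the left and 150.9 on the right. The next were on chromosome 4 from 68859238 to 68859591 (98.1 and 136.9) and on chromosome 9 from 82124889 to 82125242 (95.4 and 186.3). The other members of the leading 5 were found on chromosome 1 between 136343077 and 136343430 (147 and 90) and on chromosome 9 from 10421249 to 10421602 (75.6 and 78.3). Among pairs at the longer spacing the leading pair was on chromosome 2 from 144792209 to 144792591, with 94.9 on the left and 112.1 on the right. Chromosome 3 carried the second (30003980 to 30004362, with 112.7 and 92.3) and the fourth (29993389 to 29993771, with 70.8 and 68.2). Chromosome 8 carried the third (172651017 to 172651399, with 166.3 and 76.7) and chromosome 5 the fifth (33036903 to 33037285, with 119.9 and 68.1). The highest signal in any pair, chosen after its value was seen, was 326.6 at the shorter spacing, on chromosome 2 from 133007344 to 133007697, beside a peak of 52.4. At the longer spacing it was 227.6, on chromosome 1 from 192087845 to 192088227, beside a peak of 58.4. The list as a whole reached 2849.2. Positions are those of the deposited list, counted from 1, and the genome build is not given in the sources used here.

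Pairs of both spacings were found on all 10 chromosomes and were scarce near chromosome ends. Only 31 of 354 pairs at the shorter spacing (8.76%, 6.24 to 12.2%) lay in the outermost 10% at either end, against 18.1% (16.4 to 19.9%) of pairs off that distance. In the longer class, 22 of 303 did (7.26%, 4.84 to 10.7%), against 14.4% (12.9 to 16.1%) off it, and the share of all THX20 peaks was 17.7%. The central 20% of chromosome length held 29.9% (25.4 to 34.9%) of pairs at the shorter spacing and 22.6% (20.8 to 24.6%) of pairs off it, a difference of 7.35 points (2.41 to 12.6). Over the central 50% of length it was 15.02 points (9.56 to 20.1), and in the stronger 50% of the list its interval included 0 (8.65 points, -0.743 to 19.6). For the longer spacing the central shares were 26.7% (22.1 to 32.0%) and 24.8% (22.9 to 26.8%), a difference of 1.95 points whose interval included 0 (-3.14 to 7.53). Chromosome 3 had the most pairs per Mb at either spacing, 0.246 (0.187 to 0.318) at the longer spacing and 0.208 (0.154 to 0.275) at the shorter spacing. Among pairs at the longer spacing, chromosome 6 had the fewest with 0.0977 (0.0569 to 0.156), and at the shorter spacing it was chromosome 10 with 0.126 (0.0758 to 0.197). Chromosome 3 held 18.8% of all pairs at the longer spacing and 11.7% of those off it, a difference of 7.16 points (2.91 to 12.1). In the shorter class the corresponding shares were 13.6% and 10.6%, with an interval of the difference from -0.43 to 7.21 points. Chromosome 3 was named because it ranked highest of the 10 chromosomes, and these intervals take no account of that choice. In each class 5 pairs were on contigs not placed on a chromosome, 1.39% at the shorter spacing and 1.62% at the longer spacing, against 1.38% and 1.58% off these distances.

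**Figure D3:**
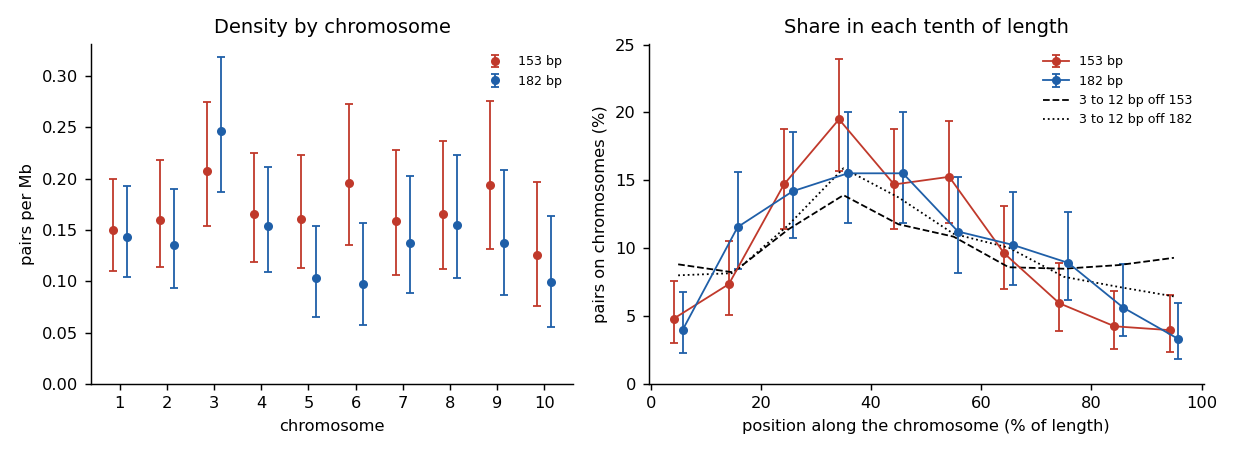
Left, pairs per Mb on each of the 10 chromosomes for the shorter (red) and the longer spacing (blue), with 95% Poisson intervals; chromosome 3 at the longer spacing is the highest point (0.246). Right, share of the pairs on chromosomes in each 10% of chromosome length, with 95% Wilson intervals, and pairs 3 to 12 bp off as black lines; both classes lie below the lines in the first and the last 10%.

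To describe what stood around the pairs, each was turned so that its stronger THX20 peak came first. Positions on the far side of the stronger peak are called the stronger side, and those beyond the weaker peak the weaker side. Distances are given outward from the nearer of the THX20 summits. The orientation by signal was adopted with the data in view, and no pair of either class had equal signals.

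Further THX20 summits stood within 1 kb of 90 pairs at the shorter spacing (25.1%, 20.9 to 29.8%), against 24.5% (22.6 to 26.4%) of pairs off that distance. At the longer spacing there were 76 such pairs (24.7%, 20.2 to 29.8%), against 21.8% (19.95 to 23.7%). The differences of 0.612 points (-4.04 to 5.71) and 2.92 points (-1.95 to 8.34) had intervals that included 0, and the background over all 14070 adjacent THX20 pairs 100 to 300 bp apart was 24.6%. These differences depended on the setting. In the stronger 50% of the list, with adjacency found anew, they turned to -12.4 (-17.2 to -4.71) and -8.996 points (-12.99 to -2.41). Within 500 bp the longer spacing differed by 5.85 points (1.12 to 11.1). The further summits had preferred places. At the shorter spacing the most frequent next spacing was 65 bp, found in 18 pairs and all 18 times on the stronger side. It was found once among the 1889 pairs off that distance, but it was picked for its count in the class. In those compared pairs the most frequent next spacing was 149 bp, found 15 times. In the longer class the most frequent next spacings were 191 bp (21 pairs, 18 on the stronger side) and 202 bp (16 pairs, 15 on the stronger side). Among the 1894 pairs off that distance, further summits at 191 and 202 bp occurred 20 and 29 times. A place on the stronger side was common in the compared pairs too. It held 87.8% of 90 outer THX20 summits at the shorter spacing and 78.3% of 526 off it, and 81.3% of 80 at the longer spacing and 76.1% of 464 off it.

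The signals are given for groups whose further summit is on the stronger side, where the middle peak is above the weaker one by the choice of side. Peaks 65 or 191 bp apart overlap too, so their signals may not be independent. In the 18 groups with a further summit 65 bp from a pair at the shorter spacing, which span 218 bp, the outer peak beside the stronger one had a median signal of 45 (16.7 to 132), the middle one 76.9 (38.6 to 169.9) and the weaker peak of the pair 23.6 (13.7 to 51.9). The middle peak was exceeded by its outer neighbour in 2 of these 18 groups. Of the 21 groups at the longer spacing with a further summit 191 bp out, the 18 with it on the stronger side spanned 373 bp and had medians of 18.2, 66.2 and 21.6 in the same order. Of the 16 with it 202 bp out, the 15 on the stronger side spanned 384 bp and had medians of 21.1, 84.2 and 24. In these 18 and 15 groups the outer neighbour was below the middle peak every time. The 3 and 1 groups with the further summit on the weaker side are not included. No group of THX20 peaks with neighbours at most 1 kb apart held both spacings. Of the 14070 adjacent pairs 100 to 300 bp apart, 308 were at the longer and 359 at the shorter spacing. Few groups with both were thus likely, and no avoidance is read from their absence. One group, on chromosome 7 from 122794420 to 122794926, held the shorter spacing in succession between summits with signals of 28.3, 43.7 and 52. Of 358 groups at the shorter spacing 269 held no further peak, and of 308 at the longer spacing 232 held none. The nearest meeting of the classes was on chromosome 5, where the midpoint of a pair at the shorter spacing (left summit at 33035245) lay 1772.5 bp from that of a pair at the longer spacing (left summit at 33037003).

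C3H23 summits were more frequent around pairs of both classes than around pairs off these distances. A C3H23 summit stood within 1 kb of 145 pairs at the shorter spacing (40.4%, 35.4 to 45.5%) and of 21.4% (19.6 to 23.3%) of pairs off it, a difference of 19 points (13.7 to 24.5). Among pairs at the longer spacing it was 143 pairs (46.4%, 40.9 to 52.0%) against 25.3% (23.4 to 27.3%), a difference of 21.1 points (15.3 to 27.0). With the stronger 50% of the C3H23 list the differences were 12.98 (8.45 to 17.9) and 9.72 points (5.20 to 14.8). The background over all adjacent THX20 pairs 100 to 300 bp apart was 22.7%. None of the 20 single distances beside the shorter spacing reached its share, the highest being 27.3% at 159 bp, and none beside the longer one did, the highest being 40% at 191 bp.

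The C3H23 summits had fixed places of their own. In the shorter class they stood 128 bp out in 11 pairs, 129 bp out in 10 and 86 bp out in 10. All 25 within 2 bp of 128 bp were on the stronger side. At the longer spacing the one distance found at least 10 times was 104 bp, in 21 pairs, of which 11 were on the weaker side and 10 on the stronger. This places C3H23 286 bp from the farther THX20 summit. Within 2 bp of that place there were 43 summits, 28 of them on the weaker side. In bins of 20 bp along the oriented pairs, the bin from 280 bp held 11.7 C3H23 summits per 100 pairs at the longer spacing and 1.90 per 100 off it, and the bin from 380 bp held 8.12 and 1.48. Both bins are beyond the weaker peak. In all, 35.1% of 151 outer C3H23 summits at the longer spacing were on the stronger side, against 56.4% of 511 off it. The compared share pools 20 distances, and the side at single distances was not examined. At the shorter spacing the shares were 56.7% of 164 and 52.2% of 408. The median C3H23 signal was 65 at 128 bp, 44 at 129 bp, 36.4 at 86 bp and 37 at 104 bp, beside a median of 36 for the whole C3H23 list. These named places, with 2 bp allowed, accounted for 38 of the 145 pairs at the shorter spacing with C3H23 nearby, and for 43 of the 143 at the longer spacing. They were occupied in 10.6% (7.81 to 14.2%) of pairs at the shorter spacing and 14.0% (10.5 to 18.3%) at the longer spacing, against 0.688% and 0.158% of pairs off these distances, at the same outward distances. The places were found in the classes and not in the compared pairs, so these shares are a description.

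CPP2, whose list was the longest of the other factors (165420 peaks, against 76032 for C3H23 and 51187 for OBF4), was the most frequent neighbour. It stood within 1 kb of 230 pairs at the shorter spacing (64.1%, 59.0 to 68.9%) and of 29.8% (27.7 to 31.9%) of pairs off it, a difference of 34.3 points (28.8 to 39.5). In the longer class there were 218 such pairs (70.8%, 65.5 to 75.6%), against 43.3% (41.1 to 45.5%), a difference of 27.5 points (21.7 to 32.8). With the stronger 50% of the CPP2 list the differences were 13.05 (8.33 to 18.1) and 12.1 points (6.66 to 17.8). The background was 34.5%. Without the frequent distances the compared shares were 24.2% and 28%. The single distances closest to the classes were 159 bp with 61.3% and 175 bp with 71.3%, the one distance of those compared that exceeded its class. The neighbours just outside the rule were 64.8% at 181 bp and 47.2% at 183 bp, and beside the shorter spacing 44.7% at 152 bp and 31.3% at 154 bp.

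CPP2 stood on opposite sides in the classes. In the shorter class it was mostly beyond the weaker peak: of 310 outer CPP2 summits 25.2% were on the stronger side, against 42.5% of 720 in pairs off that distance. Among pairs at the longer spacing, 78.7% of 253 were on the stronger side, against 50.5% of 969. The exact distances at the shorter spacing were 898 bp (22 pairs, 20 on the weaker side), 816 bp (18 pairs, 17 on the weaker side), 505 bp (11 pairs), 815 bp (11 pairs) and 899 bp (10 pairs). At the longer spacing they were 702 bp (25 pairs, 20 on the stronger side), 663 bp (18 pairs), 701 bp (17 pairs), 700 and 709 bp (16 pairs each), 691 bp (13 pairs) and 664 bp (10 pairs). With 2 bp allowed, 66 summits stood around 701 bp, 57 of them on the stronger side. These named places, with 2 bp allowed, were occupied in 102 pairs at the shorter spacing (28.4%, 24 to 33.3%) and in 1.11% of pairs off it. In the longer class they were occupied in 157 pairs (51.0%, 45.4 to 56.5%), which was 72.0% of the pairs with CPP2 within 1 kb, and in 12.9% (11.4 to 14.5%) of pairs off it. As for C3H23, the places were picked for their counts in the classes and looked up at the same outward distances in the compared pairs. A higher share in the classes was thus built in, and these shares are a description. The median CPP2 signal at these places ran from 24.5 at 816 bp to 55.5 at 709 bp, beside a list median of 41. The named places lie 505 to 899 bp out. With a limit of 500 bp the picture was another. The difference was then 3.90 points at the shorter spacing, with an interval that included 0 (-0.0603 to 8.45), and -10.02 points (-13.6 to -5.61) at the longer one. Why the longer class then had the lower share was not tested.

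**Figure D4:**
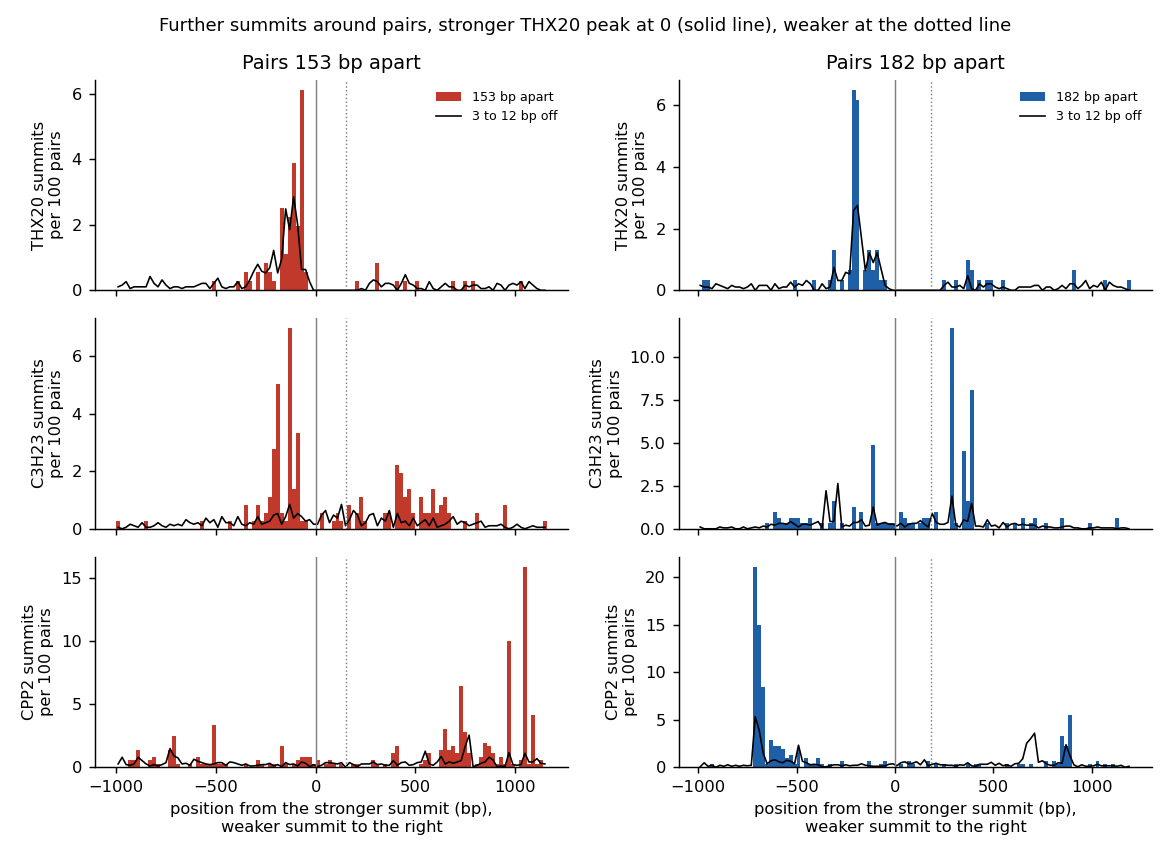
Summits of THX20 (top), C3H23 (middle) and CPP2 (bottom) per 100 pairs, in bins of 20 bp, around pairs at the shorter (left, red bars) and the longer spacing (right, blue bars), with pairs 3 to 12 bp off as black lines. Position 0 is the stronger THX20 summit and the dotted line the weaker one; the tallest CPP2 bars are beyond the weaker peak at the shorter spacing and on the stronger side, near 701 bp out, at the longer spacing.

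C3H23 and CPP2 were found at the same pair more often than in the compared pairs. Both were within 1 kb of 106 pairs at the shorter spacing (29.5%, 25 to 34.4%) and of 106 pairs at the longer spacing (34.4%, 29.3 to 39.9%), against 8.63% and 14.0% off these distances. Each factor alone was also more frequent in the classes, so a higher share with both would arise without any link between them. Whether they met more often than their single shares give was not tested. No summit of another factor was within 1 kb of 24.2% (20.1 to 28.9%) of pairs at the shorter spacing and 16.9% (13.1 to 21.5%) at the longer spacing, against 54.4% and 41.9%. OBF4 shares were lower in the classes than in the pooled compared pairs, at a small number of pairs, though not in the classes alone. It stood within 1 kb of 7 pairs in each class, 1.95% (0.948 to 3.97%) at the shorter spacing and 2.27% (1.11 to 4.62%) at the longer spacing. In pairs off these distances the shares were 5.03% (4.13 to 6.11%) and 5.54% (4.60 to 6.67%), so the class minus compared differences were -3.08 points (-4.55 to -0.869) and -3.27 points (-4.89 to -0.745). Under other settings the interval included 0: within 500 bp it was -1.62 (-2.81 to 0.324) at the shorter and -1.59 (-2.99 to 0.767) at the longer spacing. With the stronger 50% of the OBF4 list it was -1.28 (-2.22 to 0.405) at the shorter spacing, and against distances 13 to 25 bp off it was -2.11 (-3.61 to 0.366) at the longer one. The OBF4 background was 5.2%. Beside the shorter spacing 19 of 20 single distances had an OBF4 share at or above the class, and beside the longer one 20 of 20 did. Some other frequent spacings had low shares too: 1.48% at 181 bp, 2.31% at 176 bp, 2.59% at 191 bp, 2.68% at 202 bp and 3.24% at 175 bp. The highest compared shares were 10.9% at 142 bp and 15.9% at 186 bp.

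All 3 other factors were within 1 kb of 2 pairs at the shorter spacing (0.557%) and 3 at the longer spacing (0.974%). Of the pairs off these distances, 0.159% and 0.528% had all 3. The intervals of the differences included 0 (-0.109 to 1.85 points at the shorter and -0.333 to 2.31 points at the longer spacing). At the shorter spacing the pairs with all 3 were on chromosome 5 from 33035145 to 33035498 (THX20 signals 46.9 and 125.2) and on chromosome 6 from 98243794 to 98244147 (120.3 and 13.7). At the pair on chromosome 6, CPP2 stood 816 bp beyond the weaker peak, one of the named places, with a signal of 32. Among pairs at the longer spacing, one was the pair on chromosome 3 that starts at 29993389. Chromosome 7 held the others, at 42040474 to 42040856 (20.5 and 39.5) and 42030257 to 42030639 (37.7 and 14.3). OBF4 stood 306 bp to the left of the pair on chromosome 3, and 292 and 310 bp to the right of those on chromosome 7, with signals of 29.6, 19 and 27.8.

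Pairs of one spacing also recurred at set distances along a chromosome. At the longer spacing, 19 consecutive pairs of the class were 10573 to 10632 bp apart (left summit to left summit, median 10618 bp). They lay on 7 chromosomes and 1 contig, with 7 of them on chromosome 1, and involved 38 of the 308 pairs. Between 9.5 and 10.5 kb there was 1 such interval, and between 10.85 and 11.85 kb there was 1. In 17 of the 19 the strong and weak peaks came in the same order in both pairs, as they did in 17 of the 23 that were 11.85 to 40 kb apart. Among all 294 consecutive pairs of the class the order was the same in 158. In the shorter class, 8 consecutive pairs were 10629 to 10803 bp apart and all 8 had the same order. Another 6 were 4749 to 4997 bp apart, 5 of them in the same order. The limits of these intervals were chosen after the distances had been seen.

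**Figure D5:**
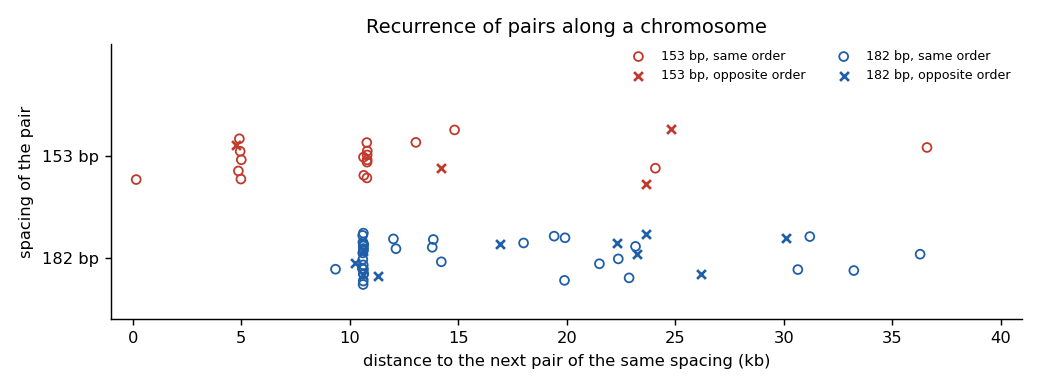
Distance from each pair to the next pair of the same spacing on the chromosome, up to 40 kb, for the shorter (red, 22 intervals) and the longer spacing (blue, 45 intervals); height within a row has no meaning. Circles mark neighbours with strong and weak peak in the same order and crosses those in opposite order; 19 intervals of the longer class pile up between 10573 and 10632 bp.

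The recurrence was wider when any THX20 summit was counted in place of a whole pair. In the longer class, 90 pairs (29.2%, 24.4 to 34.5%) had a THX20 summit 10.5 to 10.7 kb out from the pair, measured from its farther summit, against 16.4% (14.8 to 18.1%) of pairs off that distance and 7.67% (6.27 to 9.34%) when the frequent distances were left out. In 9 other windows of the same width, placed on either side of it from 9.1 to 12.1 kb out, 0.974 to 3.25% of the pairs at the longer spacing had one. At the shorter spacing, 62 pairs (17.3%, 13.7 to 21.5%) had a THX20 summit 10.7 to 10.9 kb out, against 6.25% (5.24 to 7.43%) of pairs off it, and 1.11 to 2.79% in the other windows. Some other spacings recurred in the same way: 27 consecutive pairs at 181 bp, 19 at 191 bp, 15 at 202 bp, 13 at 175 bp and 11 at 176 bp were 10.5 to 10.7 kb apart.

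The other factors around recurring pairs were compared between neighbours. Among the 19 neighbours at the longer spacing, CPP2 was within 1 kb of both pairs in 15, of one in 2 and of neither in 2. C3H23 was near both in 6, near one in 9 and near neither in 4. Of all pairs at the longer spacing, 70.8% had CPP2 and 46.4% had C3H23 within 1 kb, so some agreement between neighbours would arise without recurrence. The Spearman correlation of the stronger signal between the 19 neighbours was 0.51, and that of weaker over stronger 0.53, as descriptions without a test. Between the 8 neighbours at the shorter spacing these correlations were 0.43 and 0.17. There CPP2 was near both pairs in 4, near a single pair in 2 and near neither in 2. C3H23 was near both in 0, near a single pair in 5 and near neither in 3. An example at the longer spacing is the pair of loci on chromosome 3 with left summits at 29993489 and 30004080. Both were among the leading 5 by their weaker peak. The left peak was the stronger in both, with 70.8 over 68.2 and 112.7 over 92.3, and a CPP2 summit stood 664 bp to the right of each, with signals of 17 and 33. C3H23 differed between them, standing 528 bp to the right of the one and 104 bp to the left of the other.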

How the data were processed

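DAP-seq peak lists of THX20, C3H23, CPP2 and OBF4 were used, each from 1 library. The submitters' processing notes name Trimmomatic 0.39 and Bowtie2 2.4.1. Peak caller, control and genome build: not given in the sources used here. The deposited lists have 10 columns, and the summit was taken 100 bp into each peak of 201 bp. The deposited signal per peak has no stated scale and was never compared between lists. As another measure of strength the deposited −log10 p-value was tried, and the deposited score was not used. Depth is unknown.

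The shorter spacing is exactly 153 bp and the longer exactly 182 bp. The members, the compared distances and the analyses were chosen with earlier results of these data known. Orientation by signal, recurrence, its windows, the places beyond 1 kb and the removal of frequent compared distances were added after the data had been seen. Named pairs were, per spacing, the 5 with the highest signal of the weaker peak and up to 5 with all 3 other factors within 1 kb. Named distances were those found at least 10 times, at most 10 per list. Shares have Wilson intervals, counts and densities exact Poisson intervals and medians order-statistic intervals, and intervals of differences combine those of both groups. A chromosome's length was taken as its last peak end. The pair finding was tested on simulated data. Python 3.11.15, numpy 2.4.6, pandas 2.3.3, scipy 1.17.1 and matplotlib 3.10.9 were used.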

Additional observations from a re-analysis of the deposited data

How the results depend on the processing

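Of 64 alternative values over 16 results, 40 stayed within the interval or, for pair numbers, within 1.5 times; 23 moved further and 1 reversed. The reversal was the CPP2 difference at the longer spacing within 500 bp, -10.02 points, and the one at the shorter spacing was then 3.90 points, with an interval that included 0. All named CPP2 places lie beyond 500 bp, and the cause of the reversal was not tested. With 1 bp allowed either side there were 590 pairs at the shorter and 650 at the longer spacing, with ratios of 2.08 and 2.29 to the compared distances. In the stronger 50% of the THX20 list there were 85 and 96 pairs, the ratio at the shorter spacing was 2.91, and the difference in further THX20 summits turned to -12.4 and -8.996 points, with intervals below 0. In the stronger 50% of the other lists the C3H23 differences were 12.98 and 9.72 points and the CPP2 differences 13.05 and 12.1. Against distances 13 to 25 bp off, the ratio at the longer spacing was 3.69 and its CPP2 difference 33.7 points. Without the frequent compared distances, chosen after seeing the data, the ratios were 4.56 and 4.51 and the CPP2 differences 39.9 and 42.8 points, and at the longer spacing C3H23 was at 27.3 and OBF4 at -5.05 points. Over the central 50% of chromosome length the shorter spacing differed by 15.02 points. Some values within the interval still lost or gained an interval clear of 0: the OBF4 differences (within 500 bp in both classes, in the stronger 50% of the OBF4 list at the shorter spacing, against 13 to 25 bp off at the longer one), the central share at the shorter spacing in the stronger 50% of the THX20 list, and further THX20 summits within 500 bp at the longer spacing. The cause of these other changes was not tested. No paired analysis was possible because there was only 1 library per factor, and no replicate could be left out. Unknown depth limits statements on weak or missing summits.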

Other observations

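Beyond 1 kb, places of the other factors are given for the classes alone, without values for the compared pairs. Around pairs at the longer spacing, OBF4 stood within 2 bp of 1647 bp beyond the weaker peak 7 times and within 2 bp of 1657 bp 6 times. At the same distances on the stronger side there were 1 and 0. From 1 to 3 kb, 5 OBF4 summits were on the stronger side and 28 on the weaker side of these pairs. Around pairs at the shorter spacing the OBF4 numbers were 15 and 9. CPP2 had a further place beside pairs at the shorter spacing, within 2 bp of 2212 bp beyond the weaker peak, 14 times against 3 on the stronger side. From 1 to 3 kb it had 49 summits on the stronger side and 131 on the weaker side at the shorter spacing, and 19 on either side at the longer one. These places were picked for their counts and have no test.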
